A study of Mus musculus with 4 samples.

Results

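Serpina3n, Serpina3g, A2m, Hp and Saa3 are 5 acute-phase and protease inhibitor genes, taken by symbol from the 31053 features of a single-cell RNA series of mouse bone marrow. Their choice drew on their levels by cell type and library, so those levels are given as a description, with no test. The 4 libraries, with 1 per group, came from irradiated Vegfc-deleted, irradiated control, non-irradiated Vegfc-deleted and non-irradiated control mice. Vegfc-deleted mice were RosaCreERT2;Vegfc flox/flox, in which a Cre recombinase that tamoxifen activates is made in all cell types from the Rosa26 locus, and control mice were Vegfc flox/flox without it. All were of the C57Bl/6JCrl strain and 7 to 8 weeks old when tamoxifen was given into the stomach in 5 doses, which 1 part of the labels gives for both genotypes and another for a part of the samples only. Total body irradiation with 4 Gy followed 2 weeks later in the irradiated groups, and marrow was taken 7 days after it. The libraries pooled 2 mice each with irradiation and 3 mice each without it. VE-cadherin antibody had been injected into the circulation, and the sort from digested tibial marrow took viable cells that lacked CD45, Ter119 and other lineage markers.

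Each library counted molecules by unique molecular identifiers (UMIs) at the 3′ end of transcripts, from 54462123 to 77284922 UMIs per library. After filtering, 4065 irradiated Vegfc-deleted, 3837 irradiated control, 5211 non-irradiated Vegfc-deleted and 5058 non-irradiated control cells were kept, with medians of 7635.5 to 9874 UMIs per cell. Among these, 47 cell barcodes occurred in more than 1 library. Clusters were named from marker genes, and the names below stand for cells like those named. The LepR+ stromal class held 138 irradiated Vegfc-deleted, 416 irradiated control, 632 non-irradiated Vegfc-deleted and 1077 non-irradiated control cells. Lepr was found in 97.1 to 100% of these cells and Cxcl12 in all of them. The endothelial class held 689, 1485, 376 and 310 cells in the same order of libraries, with Cdh5 in 99.1 to 99.9% and Stab2 in 96.3 to 99.4%. Vegfc measured 24.6 UMIs per 1000000 UMIs of the class (CPM) in irradiated Vegfc-deleted and 177 CPM in irradiated control stromal cells, against 18.3 CPM and 171 CPM in non-irradiated Vegfc-deleted and control stromal cells.

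In the acute-phase response, cytokines such as interleukin-6 and interleukin-1 act through STAT3, C/EBP and NF-kB factors and raise the output of a set of secreted proteins, best known from the liver. Protease inhibitors among them limit the enzymes that neutrophils and other cells release into tissue, and scavengers bind the haemoglobin that leaves broken red cells. LepR+ stromal cells are the reticular, fat-primed cells that line marrow sinusoids and make Cxcl12 and stem cell factor, and sinusoidal endothelial cells form the wall of those vessels. Serpina3n is a secreted inhibitor of neutrophil serine proteases and granzyme B, whereas Serpina3g stays inside the cell and inhibits cysteine cathepsins. A2m is a plasma protein that traps proteases of many kinds, Hp is haptoglobin, which binds free haemoglobin, and Saa3 is a serum amyloid A protein that is made outside the liver in mice.

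Serpina3n (ENSMUSG00000021091) and Serpina3g (ENSMUSG00000041481) lie in the same serpin cluster on the + strand of chromosome 12, at chr12:104406729-104414329 and chr12:104236245-104241939 of GRCm38, and each has 5 exons in GENCODE M21. A2m has 36 exons at chr6:121635376-121679227, Hp has 5 exons at chr8:109575128-109579172 and Saa3 has 4 exons at chr7:46711998-46715700. All are protein-coding genes. In the last 500 bases of the longest coding transcript, where 3′ reads fall, none of 411 windows of 90 bases was shared with another gene for 4 of the members, and 9 of 411 were shared with Malat1 for Saa3. RefSeq promoters of GRCm38.p6, from 250 bases before to 50 after the start, were matched for 3 of the 5 members. They are shown because the serpin neighbours share sequence but were measured at unlike levels, and because Saa3 was the member that was higher with irradiation in stromal cells. They run from chr12:104406458-104406757 (+ strand) for Serpina3n, chr12:104235897-104236196 (+ strand) for Serpina3g and chr7:46715627-46715926 (- strand) for Saa3. Positions refer to the RefSeq start, and the Serpina3g window ends before the gene start that GENCODE M21 gives. Capitals mark matches, on either strand, to motifs of factors of the acute-phase and interferon responses.
Serpina3n: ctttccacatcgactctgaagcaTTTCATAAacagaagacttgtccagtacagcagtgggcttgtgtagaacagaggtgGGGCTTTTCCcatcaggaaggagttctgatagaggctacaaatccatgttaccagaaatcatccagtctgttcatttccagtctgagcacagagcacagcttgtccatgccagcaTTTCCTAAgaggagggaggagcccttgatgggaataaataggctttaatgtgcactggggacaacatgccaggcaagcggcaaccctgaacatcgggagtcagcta
Serpina3g: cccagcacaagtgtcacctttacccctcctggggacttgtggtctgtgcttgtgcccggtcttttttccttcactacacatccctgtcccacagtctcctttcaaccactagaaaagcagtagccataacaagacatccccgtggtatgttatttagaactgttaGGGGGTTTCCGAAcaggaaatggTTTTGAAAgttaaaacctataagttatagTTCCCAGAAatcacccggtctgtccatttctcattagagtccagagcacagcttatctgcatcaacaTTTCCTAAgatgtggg
Saa3: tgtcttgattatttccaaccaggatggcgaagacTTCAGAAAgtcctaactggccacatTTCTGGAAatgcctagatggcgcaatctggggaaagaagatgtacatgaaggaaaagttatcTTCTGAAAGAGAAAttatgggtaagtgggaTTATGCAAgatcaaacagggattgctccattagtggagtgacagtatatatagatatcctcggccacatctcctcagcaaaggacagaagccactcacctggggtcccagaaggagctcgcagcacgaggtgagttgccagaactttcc
The motifs searched were TTNNGNAA for C/EBP, GGG, any 2 bases and TTTCC for NF-kB, TTCNNNGAA for STAT and a pair of GAAA with any 2 bases between them for the interferon-stimulated element, and they occurred in 40.7%, 1.63%, 8.30% and 3.44% of 32851 mouse promoters of this length. The Serpina3n promoter held 2 C/EBP matches and 1 NF-kB match. The Serpina3g promoter held 3 C/EBP matches, 1 NF-kB match that overlaps a C/EBP match, and 1 STAT match. The Saa3 promoter held 4 C/EBP matches and 1 interferon-stimulated element that overlaps a C/EBP match. In a local alignment of the Serpina3g and Serpina3n promoters, 111 of 154 columns were identical (72.1%). A match describes these letters and is no evidence that a factor binds.

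Stromal cells held most UMIs of Serpina3n and A2m in every library. The LepR+ stromal class held 79.4% of the library's Serpina3n UMIs in irradiated Vegfc-deleted, 84.4% in irradiated control, 89.5% in non-irradiated Vegfc-deleted and 94.1% in non-irradiated control marrow. Its share of A2m was 66.7% in irradiated Vegfc-deleted marrow, where the class had only 2 A2m UMIs, and 91.8 to 97.2% in the other libraries. Hp was shared with neutrophils, which store haptoglobin in granules. Stromal cells held 14.1% of Hp UMIs in irradiated Vegfc-deleted, 64.8% in irradiated control, 67.1% in non-irradiated Vegfc-deleted and 91.7% in non-irradiated control marrow, while neutrophils held 67.6%, 16.2%, 20.3% and 2.96% in the same order of libraries. These shares follow the numbers of cells as well as their levels. The sort took cells that lacked CD45, Ter119 and other lineage markers, so the shares describe the sorted cells and not whole marrow.

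**Figure D1:**
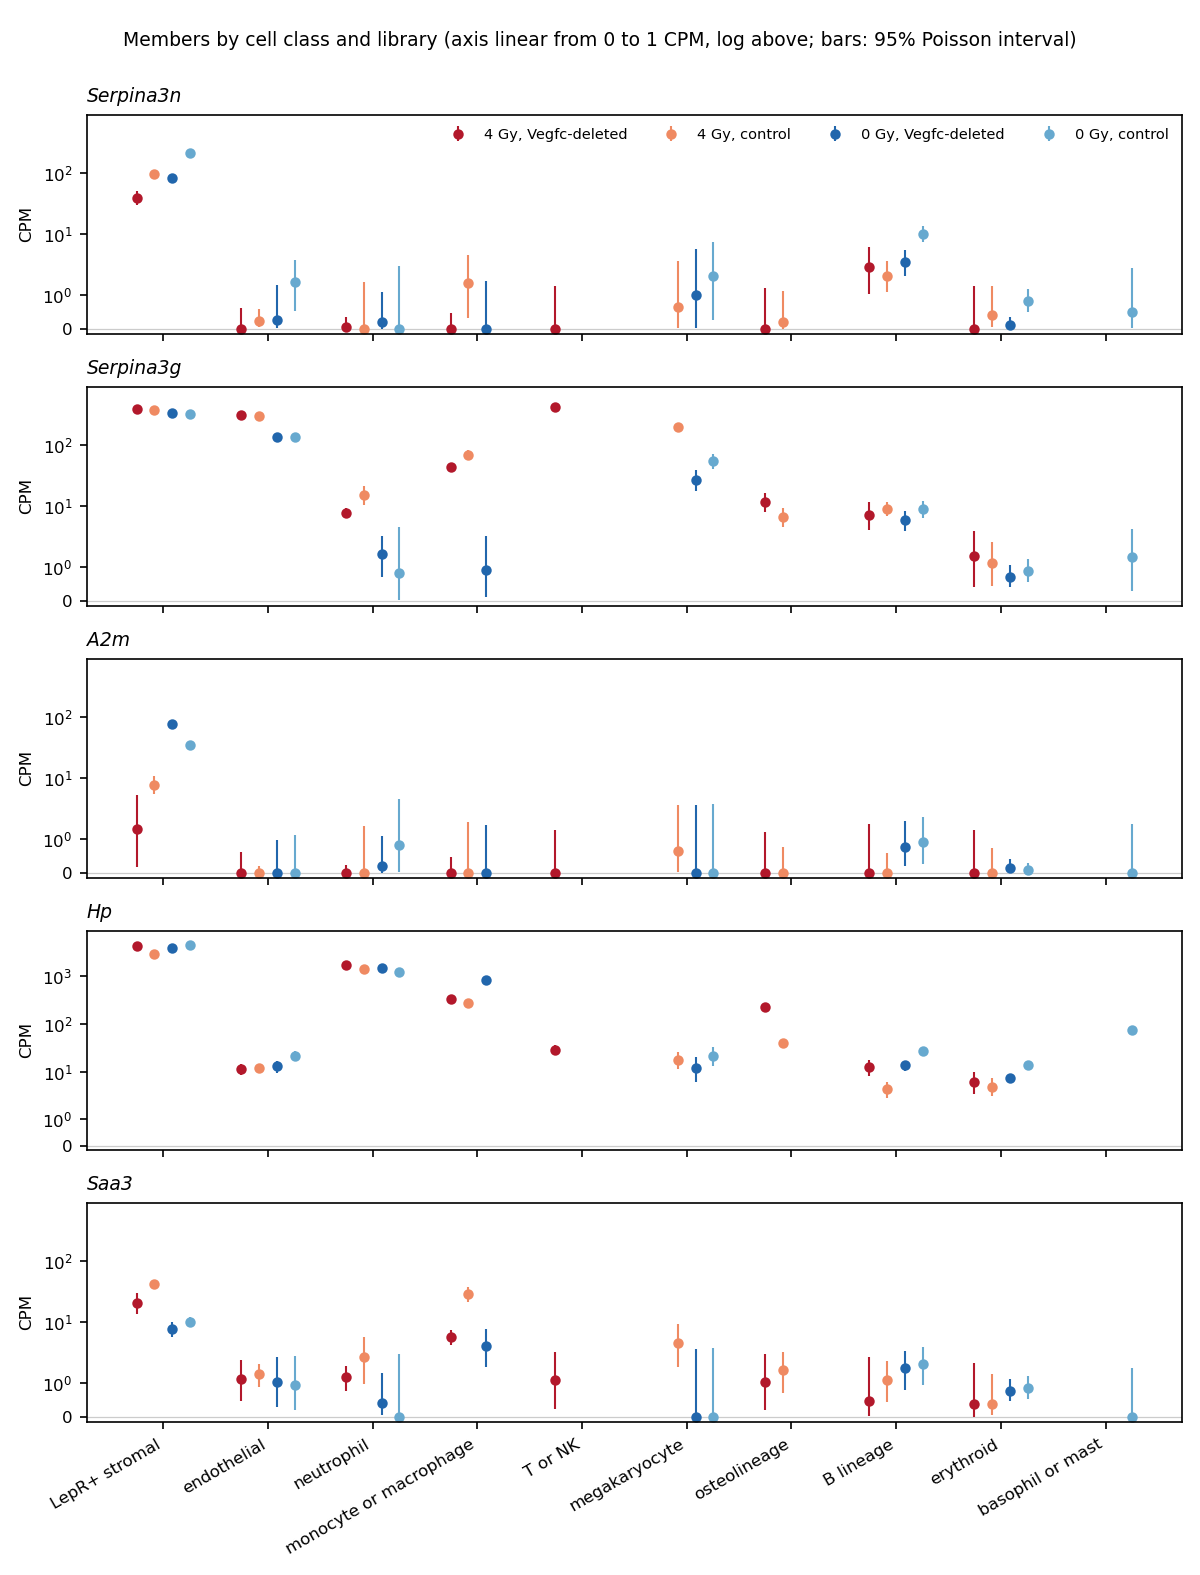
Level of each member in CPM of a class (axis linear to 1, logarithmic above), for classes with at least 50 cells in a library, with a point for each library. Serpina3n, A2m and Saa3 are highest in LepR+ stromal cells, Hp in LepR+ stromal cells and neutrophils, and Serpina3g in stromal, endothelial and T or NK cells.

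Of the 5 members, only Serpina3g was measured in endothelial cells at a level near that of stromal cells, and only in the irradiated libraries. It measured 309.7 CPM in irradiated Vegfc-deleted and 292 CPM in irradiated control endothelial cells, against 382 and 373 CPM in stromal cells. Without irradiation it measured 133 and 132 CPM in endothelial cells, Vegfc-deleted first, against 332 and 321 CPM in stromal cells. No A2m UMI was found in 689 irradiated Vegfc-deleted, 1485 irradiated control, 376 non-irradiated Vegfc-deleted or 310 non-irradiated control endothelial cells, which allows levels of up to 0.495, 0.174, 0.791 and 0.955 CPM at 3 counts per library. Serpina3n had 0, 4, 1 and 5 UMIs in these cells, and Saa3 0.955 to 1.39 CPM. Hp measured 11.2 CPM in irradiated Vegfc-deleted, 11.7 in irradiated control, 12.9 in non-irradiated Vegfc-deleted and 21.3 in non-irradiated control endothelial cells. Erythroid cells, which should lack Hp, measured 6.07, 4.88, 7.32 and 14.0 CPM in the same order, and B-lineage cells 12.3, 4.28, 13.5 and 26.6 CPM. Endothelial Hp was thus above erythroid Hp in all 4 libraries and above B-lineage Hp in irradiated control marrow only. The share of cells with an Hp UMI was 8.42%, 8.82%, 9.57% and 16.5% in endothelial, 5.44%, 4.30%, 8.83% and 16.2% in erythroid and 8.53%, 5.57%, 8.01% and 12.9% in B-lineage cells, in the same order, at median depths of 7838 to 10255, 7221 to 9341 and 4873 to 12809 UMIs. Endothelial Hp lay close to these levels and far below those of stromal cells and neutrophils, and the part of free RNA in it was not tested.

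Serpina3n was lower in stromal cells with irradiation in both genotypes and lower with Vegfc deletion at both irradiation states. It measured 39.1 CPM in irradiated Vegfc-deleted, 96.0 CPM in irradiated control, 80.9 CPM in non-irradiated Vegfc-deleted and 209 CPM in non-irradiated control stromal cells, from 54, 432, 513 and 2256 UMIs. The lowest level was in the library with both treatments and the highest in that with neither, and the 95% counting intervals of these 2 levels (29.4 to 51.0 and 201 to 218 CPM) do not meet. The irradiated over non-irradiated ratio was 0.483 in Vegfc-deleted cells (0.358 to 0.640) and 0.458 in control cells (0.413 to 0.508). The Vegfc-deleted over control ratio was 0.408 with irradiation (0.301 to 0.542) and 0.387 without it (0.351 to 0.426). With 1 library per group, these and all other intervals cover counting error only, not differences between mice, and no p-value was computed.

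The share of stromal cells with a Serpina3n UMI was also lowest in irradiated Vegfc-deleted and highest in non-irradiated control marrow, while the other 2 libraries were in the opposite order to their levels. It was 18.8% in irradiated Vegfc-deleted, 36.3% in irradiated control, 40.5% in non-irradiated Vegfc-deleted and 59.8% in non-irradiated control stromal cells. With every cell thinned to 1500 UMIs it was 6.52%, 10.9%, 11.6% and 22.4%, in the same order of libraries. Cells with 3 or more Serpina3n UMIs made up 5.80%, 10.8%, 9.02% and 30.7% of stromal cells. Erythroid cells, which should lack it, held a Serpina3n UMI in at most 1.05% of cells, at median depths of 7221 to 9341 UMIs, against 8242 to 10063 UMIs in stromal cells.

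The stromal cells of irradiated and non-irradiated marrow fell largely into different clusters, which were built without the members and their serpin family. Cluster 11, led by Adamts15, Plin1 and Lpl, held 126 irradiated Vegfc-deleted and 379 irradiated control cells, against 6 and 5 non-irradiated cells. Cluster 1 held 12 and 37 irradiated cells, against 626 and 1072 non-irradiated cells. In cluster 1, Serpina3n measured 239 CPM in irradiated control (192 to 294) and 209.8 CPM in non-irradiated control cells (201 to 219), so that the lower level was measured in the irradiated cells of cluster 11, at 82.9 CPM in control (74.3 to 92.2). The 12 irradiated Vegfc-deleted cells of cluster 1 measured 59.6 CPM (21.9 to 129.8), against 81.4 CPM in non-irradiated Vegfc-deleted cells. The genotype difference was present within either cluster. It was 37.5 CPM in Vegfc-deleted against 82.9 CPM in control cells in irradiated cluster 11, and 81.4 CPM in Vegfc-deleted against 209.8 CPM in control cells in non-irradiated cluster 1.

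**Figure D2:**
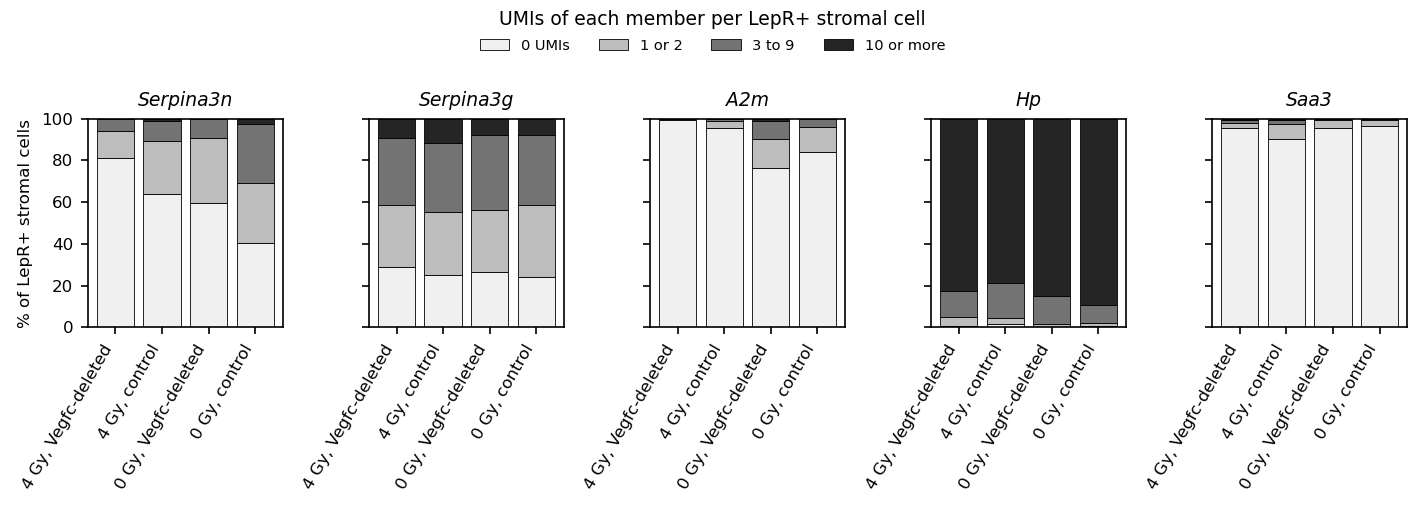
Percent of LepR+ stromal cells with 0, 1 or 2, 3 to 9, and 10 or more UMIs of each member, by library. Hp was found in 98.6 to 99.7% of cells, Serpina3g in 71.0 to 76.0%, A2m in 0.725 to 23.4% and Saa3 in 3.53 to 9.62%.

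Serpina3g, the neighbour of Serpina3n, was at like levels in stromal cells of all 4 libraries and was more than 2-fold higher with irradiation in endothelial cells of both genotypes. Stromal cells measured 382 CPM in irradiated Vegfc-deleted, 373 CPM in irradiated control, 332 CPM in non-irradiated Vegfc-deleted and 321 CPM in non-irradiated control marrow, and 71.0 to 76.0% of them held a UMI. Irradiated over non-irradiated ratios were 1.15 in Vegfc-deleted (1.05 to 1.27) and 1.16 in control stromal cells (1.10 to 1.23), near the median ratio of all genes there (log2 0.16 and 0.17), and with TMM scaling the log2 ratios were 0.01 and -0.00, so that no direction is given for them. Vegfc-deleted over control ratios were 1.02 with (0.927 to 1.13) and 1.03 without irradiation (0.978 to 1.09).

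In endothelial cells, Serpina3g measured 309.7 CPM in irradiated Vegfc-deleted and 292 CPM in irradiated control cells, against 133 CPM and 132 CPM in non-irradiated Vegfc-deleted and control cells, from 1876, 5055, 506 and 414 UMIs. Both irradiated libraries lay above both non-irradiated ones, with ratios of 2.32 in Vegfc-deleted (2.1 to 2.57) and 2.22 in control cells (2.01 to 2.46). The 2-fold call was lost in control cells with median-of-ratios factors (log2 0.98) and in Vegfc-deleted cells without cells that held a neutrophil granule UMI (log2 0.98). Genotypes differed little, with Vegfc-deleted over control ratios of 1.06 with irradiation (1.00 to 1.12) and 1.01 without it (0.887 to 1.16). A UMI was found in 71.4% of irradiated Vegfc-deleted and 73.4% of irradiated control cells, against 55.1% and 54.5% of non-irradiated Vegfc-deleted and control cells. With cells thinned to 1500 UMIs these shares were 32.1%, 28.5%, 13.1% and 13.6%, against 0.107 to 0.411% of erythroid cells, which should lack the gene and had medians of 7221 to 9341 UMIs per cell, against 7838 to 10255 UMIs in endothelial cells. The median cell measured 192 CPM and 169 CPM with irradiation, against 78.5 CPM and 76.0 CPM without it, Vegfc-deleted first.

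The higher level was measured in sinusoidal endothelium, which made up most of the class. Sinusoidal cells measured 315 CPM in irradiated Vegfc-deleted and 304 CPM in irradiated control marrow, against 139 CPM and 134 CPM in non-irradiated Vegfc-deleted and control marrow. The 98 arterial or capillary cells of all libraries measured 52.4 CPM and 43.9 CPM with irradiation, from 6 and 34 UMIs. They had 1 and 0 UMIs without it. These few values ran the same way, so the higher level with irradiation is not placed in sinusoidal cells alone. Irradiated and non-irradiated endothelial cells, like stromal cells, were mostly in different clusters. Cluster 0 held 671 and 1413 irradiated cells against 40 and 18 non-irradiated cells, and cluster 8 held 1 and 11 irradiated cells against 320 and 288 non-irradiated cells. In cluster 8, Serpina3g measured 198 CPM in the 11 irradiated control cells, against 138 CPM in non-irradiated control cells.

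Serpina3g was also at least 2-fold higher with irradiation in monocytes or macrophages and in neutrophils of both genotypes. The same held for control megakaryocytes and for T or NK cells of Vegfc-deleted mice, but not for B-lineage cells. Control megakaryocytes measured 197 CPM with irradiation, from 306 UMIs in 25 of 219 cells, and 53.5 CPM without it. For Vegfc-deleted megakaryocytes no ratio was computed. They measured 71.7 CPM with irradiation and 26.8 CPM without it, from 24 and 27 UMIs. Of these classes, the share of all genes at 2-fold is given below only for monocytes or macrophages of Vegfc-deleted mice. Monocytes or macrophages measured 43.8 CPM in irradiated Vegfc-deleted and 68.5 CPM in irradiated control marrow, against 0.901 CPM and 2.13 CPM in non-irradiated Vegfc-deleted and control marrow. The non-irradiated values rest on 2 and 1 UMIs in 126 and 27 cells, and the ratios were 48.6 in Vegfc-deleted (13.4 to 403) and 32.2 in control cells (5.68 to 1281). Neutrophils measured only 7.76 CPM in irradiated Vegfc-deleted and 15.0 CPM in irradiated control marrow, from 126 and 34 UMIs. Without irradiation they measured 1.60 CPM in Vegfc-deleted and 0.812 CPM in control marrow, from 8 and 1 UMIs in 429 and 103 cells. The neutrophil difference thus rests on low levels and few non-irradiated UMIs. T or NK cells, in which Serpina3g is known from memory cells, measured 417 CPM in irradiated Vegfc-deleted, 294 CPM in irradiated control and 167 CPM in non-irradiated Vegfc-deleted marrow. No such class was found in the non-irradiated control library. B-lineage cells measured 7.07 CPM in irradiated Vegfc-deleted and 9.03 CPM in irradiated control marrow, against 5.78 CPM and 8.79 CPM in non-irradiated Vegfc-deleted and control marrow, with ratios of 1.22 in Vegfc-deleted (0.612 to 2.35) and 1.03 in control cells (0.672 to 1.59). Erythroid cells stayed at 0.690 to 1.52 CPM in every library. T or NK markers summed to 1.02 to 2.90 CPM in stromal cells and 0.579 to 3.96 CPM in endothelial cells, with Cd3g and Klrb1c at 0 in stromal cells of all 4 libraries, against 2962 to 4527 CPM in T or NK cells themselves. Monocyte or macrophage markers summed to 27.4 CPM in irradiated Vegfc-deleted, 8.97 CPM in irradiated control, 5.27 CPM in non-irradiated Vegfc-deleted and 1.91 CPM in non-irradiated control endothelial cells, against 3495 to 4377 CPM in monocytes or macrophages, whose own Serpina3g level lay below that of endothelial cells in every library.

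**Figure D3:**
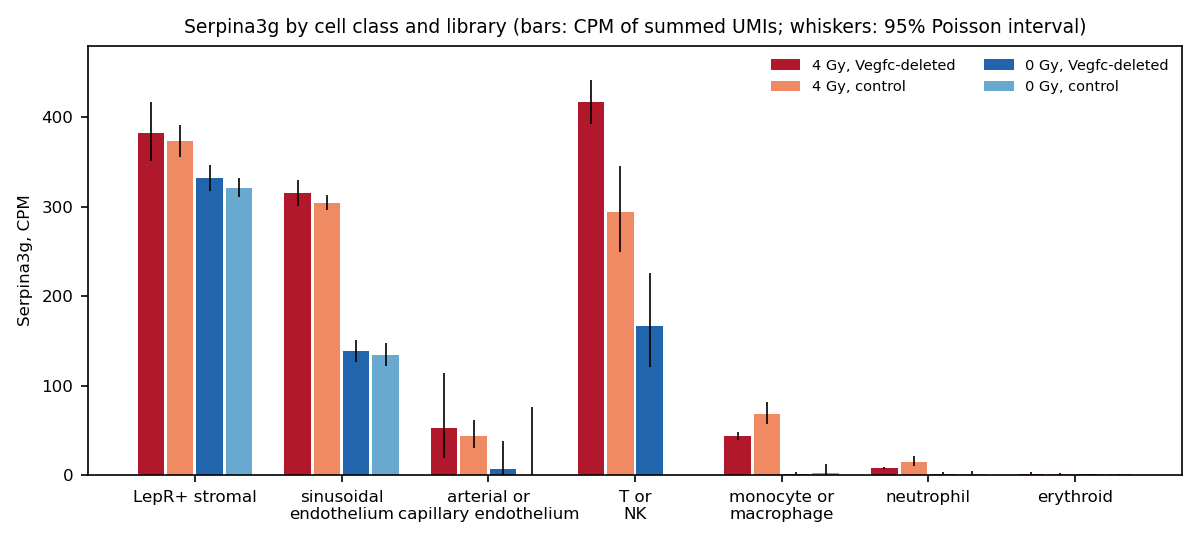
Serpina3g in CPM of a class, by class and library, with 95% counting intervals. Sinusoidal endothelial cells of both irradiated libraries lie between 292 and 315 CPM and those of both non-irradiated libraries between 132 and 139 CPM. LepR+ stromal cells lie between 321 and 382 CPM throughout, and arterial or capillary cells of the irradiated libraries lie below the sinusoidal ones.

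A2m was found mostly in stromal cells, and its level over the whole stromal class was lower in both irradiated libraries. It measured 1.45 CPM in irradiated Vegfc-deleted, 7.77 CPM in irradiated control, 75.9 CPM in non-irradiated Vegfc-deleted and 34.1 CPM in non-irradiated control stromal cells, from 2, 35, 481 and 368 UMIs. Both irradiated libraries lay below both non-irradiated ones, and the genotypes were in opposite order in the 2 states. The irradiated over non-irradiated ratio was 0.0191 in Vegfc-deleted cells (0.00230 to 0.0693, from 2 UMIs) and 0.228 in control cells (0.156 to 0.322). The Vegfc-deleted over control ratio was 0.186 with irradiation (0.0217 to 0.725, from 2 UMIs) and 2.22 without it (1.94 to 2.55). With cells thinned to 1500 UMIs only 2 UMIs were left in either irradiated library, and the direction of the ratio with irradiation reversed (log2 1.58).

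A minority of stromal cells carried A2m. A UMI was found in 0.725% of irradiated Vegfc-deleted, 4.57% of irradiated control, 23.4% of non-irradiated Vegfc-deleted and 16.0% of non-irradiated control cells. Cells with 3 or more UMIs numbered 0, 4, 62 and 41. In these cells of the non-irradiated libraries, Spp1, which encodes the bone matrix protein osteopontin, measured 4296 CPM in Vegfc-deleted and 5148 CPM in control marrow, against 2167 CPM and 3055 CPM in cells without an A2m UMI. Osteolineage markers summed to 1517 CPM in irradiated Vegfc-deleted, 1224 CPM in irradiated control, 7678 CPM in non-irradiated Vegfc-deleted and 6939 CPM in non-irradiated control stromal cells, and were thus lower in the libraries with less A2m. Their part in the A2m difference was not tested. In cluster 1, A2m measured 34.6 CPM in irradiated control (18.4 to 59.1) and 34.3 CPM in non-irradiated control cells (30.9 to 38.0). This was not seen in Vegfc-deleted marrow, where the 2 stromal A2m UMIs of the irradiated library lay in 1 cell of cluster 11. Its few cluster 1 cells thus held no A2m UMI.

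Hp was the most abundant member by UMIs, which count 3′ ends and so do not scale with transcript length, and was found in nearly every stromal cell. It measured 4257 CPM in irradiated Vegfc-deleted, 2867 CPM in irradiated control, 3848 CPM in non-irradiated Vegfc-deleted and 4436 CPM in non-irradiated control stromal cells, with a UMI in 98.6 to 99.7% of cells. The irradiated control library was the lowest, at 0.646 times the non-irradiated control level (0.634 to 0.659). In Vegfc-deleted cells the irradiated over non-irradiated ratio was 1.11 (1.08 to 1.14, log2 0.15), and with TMM scaling its direction flipped (log2 -0.05). Vegfc-deleted over control ratios were 1.48 with irradiation (1.44 to 1.53) and 0.867 without it (0.854 to 0.881). None of these passed 2-fold.

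A single cell decided the order of the irradiated Vegfc-deleted library. It carried 1358 Hp UMIs among 63028 UMIs, 23.1% of the Hp UMIs of its class, with 1150 S100a8, 1014 S100a9, 173 Adipoq and 1 Cxcl12 UMIs. S100a8 and S100a9 are marker genes of neutrophils and Adipoq is a gene of fat-primed stroma. Without the cell of most Hp UMIs in each library, Hp measured 3429.9 CPM in irradiated Vegfc-deleted, 2825 CPM in irradiated control, 3819 CPM in non-irradiated Vegfc-deleted and 4405 CPM in non-irradiated control stromal cells. The log2 ratio for irradiation in Vegfc-deleted cells was then -0.16, against 0.15 with these cells. The median stromal cell measured 2852 CPM and 2319 CPM with irradiation, against 3113 CPM and 3473 CPM without it, Vegfc-deleted first. Neutrophil markers summed to 2555 CPM in irradiated Vegfc-deleted, 148 CPM in irradiated control, 378 CPM in non-irradiated Vegfc-deleted and 133 CPM in non-irradiated control stromal cells, against 363462 to 400794 CPM in neutrophils.

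Neutrophils themselves measured 1733 CPM Hp in irradiated Vegfc-deleted, 1424 CPM in irradiated control, 1476 CPM in non-irradiated Vegfc-deleted and 1252 CPM in non-irradiated control marrow. These levels lay close together, between 1252 and 1733 CPM, and below those of stromal cells in every library. Monocytes or macrophages measured 338 CPM and 279 CPM with irradiation, against 852 CPM and 512 CPM without it, with ratios of 0.397 in Vegfc-deleted (0.374 to 0.421) and 0.546 in control cells (0.468 to 0.638).

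Saa3 was rare and concentrated in few stromal cells, and was higher in the irradiated libraries. It measured 20.3 CPM in irradiated Vegfc-deleted, 41.5 CPM in irradiated control, 7.57 CPM in non-irradiated Vegfc-deleted and 10.0 CPM in non-irradiated control stromal cells, from 28, 187, 48 and 108 UMIs. The irradiated over non-irradiated ratio was 2.68 in Vegfc-deleted (1.62 to 4.36) and 4.14 in control cells (3.25 to 5.30), and the Vegfc-deleted over control ratio was 0.488 with irradiation (0.316 to 0.729) and 0.756 without it (0.526 to 1.07). The UMIs lay in 6, 40, 28 and 38 cells. The single cell with the most held 18, 50, 9 and 42 of them, and without it the levels were 7.28 CPM, 30.6 CPM, 6.17 CPM and 6.13 CPM. The irradiated control library was still the highest, whereas the irradiated Vegfc-deleted level then lay close to the non-irradiated ones. The ratio for deletion under irradiation missed 2-fold with cells thinned to 1500 UMIs (log2 -0.10), without doublet removal (log2 -0.28) and with the low-depth stromal cluster added (log2 -0.45). For irradiation in Vegfc-deleted cells the direction reversed without cells that held a neutrophil granule UMI (log2 -1.07, from 1 against 35 UMIs).

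The irradiated control cells of cluster 1 carried the highest Saa3 level of clusters 1 and 11 over all libraries. These 37 cells held 78 UMIs, or 207 CPM, against 26.4 CPM in the irradiated control cells of cluster 11 and 10.1 CPM in the non-irradiated control cells of cluster 1. A single cell held 50 of the 78 UMIs, and without it the other 36 cells measured 78.9 CPM (52.4 to 114). In irradiated control marrow, the 11 stromal cells with 3 or more Saa3 UMIs measured 4098 CPM of Mmp13, a collagenase, against 433 CPM in the 376 cells without Saa3. The cells with Saa3 were also deeper, with medians of 16951 against 9952 UMIs. Outside stroma, 16 monocytes or macrophages of irradiated Vegfc-deleted marrow held 46 Saa3 UMIs, which were 34.1% of the library's Saa3 UMIs against 20.7% in stromal cells, and 5 of irradiated control marrow held 55. Per UMI of the class the level was 5.63 CPM and 28.3 CPM, against 20.3 CPM and 41.5 CPM in stromal cells.

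**Figure D4:**
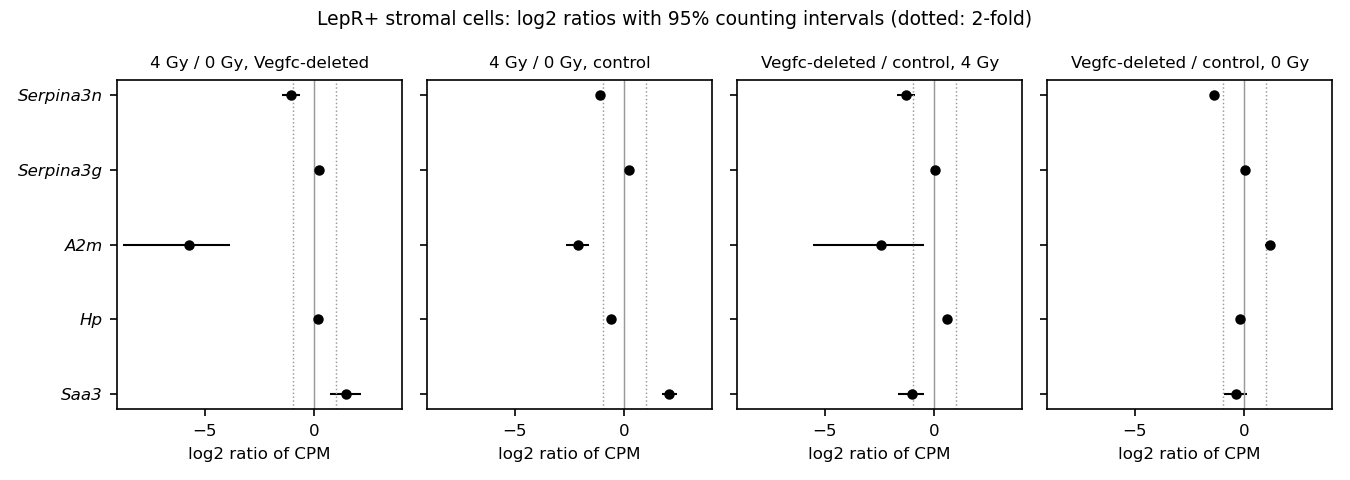
Log2 ratio of each member in LepR+ stromal cells for irradiated over non-irradiated cells in each genotype and for Vegfc-deleted over control cells in each irradiation state, with 95% counting intervals. Serpina3n lies below 0 in all 4 contrasts, A2m lies below 0 except for Vegfc deletion without irradiation, and Serpina3g stays within 0.22 of 0.

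A gene was counted as changed where it differed at least 2-fold with at least 30 UMIs in both libraries together. In stromal cells all 5 members had enough counts. With irradiation, Saa3 was higher and Serpina3n and A2m were lower in both genotypes, and these were 1 and 2 of the 5 members. The limits given above apply to Saa3 in Vegfc-deleted cells, where 1 irradiated cell held 18 of the 28 UMIs. Of all genes with enough counts, 7.02% were higher and 6.20% lower in Vegfc-deleted cells, and 6.42% were higher and 5.26% lower in control cells. With Vegfc deletion, Serpina3n, A2m and Saa3 were lower and no member was higher under irradiation, with the limits given above for A2m and Saa3, where 3.83% of genes were lower and 2.37% higher. Without irradiation A2m was higher and Serpina3n lower, where 0.776% of genes were higher and 1.53% lower. In endothelial cells 2, 2, 3 and 2 members had enough counts in the contrasts for irradiation in Vegfc-deleted, irradiation in control, deletion with irradiation and deletion without it. Serpina3g was higher in both irradiation contrasts, where 5.62% and 8.28% of genes were higher and 4.14% and 4.19% lower, and no member was changed with Vegfc deletion, where 1.14% and 1.41% of genes were higher and 2.93% and 0.947% lower. In monocytes or macrophages of Vegfc-deleted mice, where Serpina3g was higher and Hp lower with irradiation, 12.6% of genes were higher and 4.18% lower. The members were chosen on these levels, and nothing is read from their counts against these percentages.

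Most other measured genes of the serpin family did not pass 2-fold with irradiation in stromal cells. Among 8 further Serpina3 genes, 3 had enough counts in stromal cells with irradiation, and 1 of them, Serpina3m, was lower in both genotypes at 0.724 CPM in irradiated Vegfc-deleted, 2.67 CPM in irradiated control, 5.21 CPM in non-irradiated Vegfc-deleted and 11.2 CPM in non-irradiated control cells. The irradiated Vegfc-deleted level lay below 2.17 CPM, the level of 3 counts in these cells. Serpina3f, an intracellular serpin, measured 125, 189, 149.9 and 158 CPM in stromal cells and 195, 201, 199.6 and 236 CPM in endothelial cells, in the same order of libraries, and was not changed. Of 26 other protease inhibitors, 9 had enough counts in Vegfc-deleted and 11 in control stromal cells, of which 0 and 1 were higher and 1 and 3 lower with irradiation. In Vegfc-deleted cells the lower gene was Serping1, and in control cells Slpi was higher and Serpine2, Cst3 and Timp1 lower. Serping1, the C1 inhibitor, measured 1512 CPM and 1631 CPM with irradiation, against 3113 CPM and 2928 CPM without it, Vegfc-deleted first.

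Of 25 other acute-phase proteins, 13 had enough counts in stromal cells with irradiation, and 3 were higher and 4 lower in Vegfc-deleted cells, against 2 higher and 4 lower in control cells. C3, the central complement protein, measured 52.9 CPM in irradiated Vegfc-deleted, 81.5 CPM in irradiated control, 153 CPM in non-irradiated Vegfc-deleted and 218 CPM in non-irradiated control cells. The metallothionein Mt1 measured 203, 511, 1618 and 1369.6 CPM in the same order. Lcn2, an iron carrier that neutrophils also store, measured 109 CPM in irradiated Vegfc-deleted cells and 4.18 to 10.1 CPM in the other libraries. That library was also the one with the highest sum of neutrophil markers in stromal cells, whose part in the Lcn2 level was not tested.

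Part of the transcription factors and feedback genes of the response were lower with irradiation in both classes. All 14 genes of this list had enough counts, and in stromal cells 0 were higher and 9 lower in Vegfc-deleted and 0 higher and 4 lower in control cells, with median log2 ratios of -1.81 and -0.65, against 0.16 and 0.17 over all genes. In endothelial cells 0 were higher and 7 lower in Vegfc-deleted and 1, the C/EBP factor Cebpa, higher and 7 lower in control cells, with medians of -0.98 and -1.06, against 0.15 and 0.18. Nfkbia, the NF-kB inhibitor that NF-kB itself induces, measured 125 CPM and 201 CPM with irradiation in stromal cells, against 819 CPM and 1209.5 CPM without it. Socs3, the feedback inhibitor of STAT3 signalling, measured 215 CPM and 408 CPM with irradiation, against 1187 CPM and 1177 CPM without it. The C/EBP factor Cebpd measured 347 CPM and 431 CPM with irradiation, against 1551 CPM and 1196 CPM without it, in each case Vegfc-deleted first.

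With Vegfc deletion 4 of the 14, Socs1, Rela, Nfkbiz and Irf1, were lower under irradiation and 0 without it in stromal cells, with medians of -0.67 and 0.01. The 8 immediate early and heat-shock genes, among them Fos, Jun and Egr1, moved with this list as a sum, though not each of them did. Hspa1b measured 11.6 CPM in irradiated and 13.6 CPM in non-irradiated Vegfc-deleted stromal cells. Their summed level was 5268 CPM in irradiated Vegfc-deleted, 12727 CPM in irradiated control, 28076 CPM in non-irradiated Vegfc-deleted and 27691 CPM in non-irradiated control stromal cells. In endothelial cells it was 5411, 10763, 21389 and 21899 CPM in the same order. This sum was added after the values were seen, and its part in the difference of the list was not tested.

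**Figure D5:**
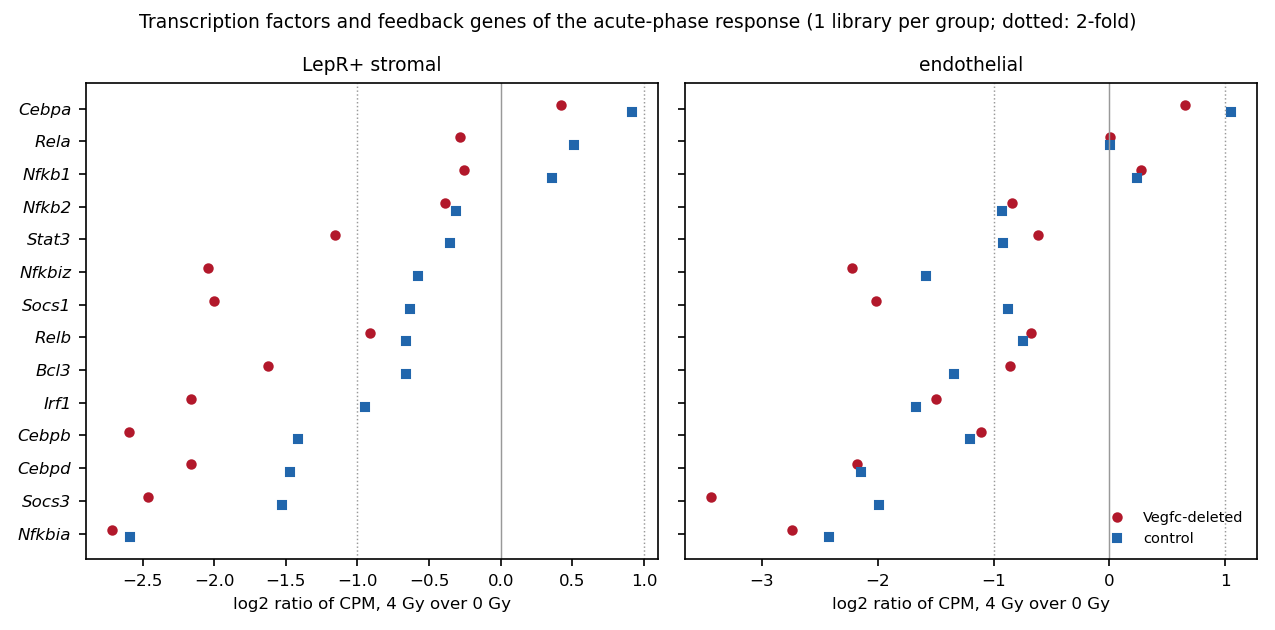
Log2 ratio of irradiated over non-irradiated cells for 14 transcription factor and feedback genes of the acute-phase response, in LepR+ stromal and endothelial cells, with circles for Vegfc-deleted and squares for control mice. Nfkbia, Socs3 and Cebpd lie below -1 in both classes and genotypes.

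Receptors for the inducing cytokines were measured in both classes and mostly did not pass 2-fold with irradiation, with Osmr and Il1r1 in endothelial cells as exceptions. Il6st, the signalling subunit of interleukin-6 family receptors, measured 182 to 236 CPM in stromal and 2539.6 to 2982 CPM in endothelial cells over the 4 libraries. Osmr, the oncostatin M receptor, measured 129 CPM and 135 CPM with irradiation in endothelial cells, against 261 CPM and 273 CPM without it, Vegfc-deleted first, and 66.6 to 95.9 CPM in stromal cells. Il1r1, the interleukin-1 receptor, measured 25.9 CPM and 23.7 CPM with irradiation in endothelial cells, against 52.7 CPM and 43.0 CPM without it, Vegfc-deleted first, and passed 2-fold in Vegfc-deleted cells alone (ratio 0.491, against 0.552 in control cells, a difference that was not tested). Of 17 cytokine and receptor genes, 10 and 11 had enough counts in Vegfc-deleted and control stromal cells, and 2 and 1 of them were lower with irradiation and none higher by this rule. Il6, which encodes the main inducing cytokine and is named because it was lower in both genotypes, had 3 UMIs in irradiated Vegfc-deleted, 12 in irradiated control, 180 in non-irradiated Vegfc-deleted and 160 in non-irradiated control stromal cells, with irradiated over non-irradiated ratios of 0.0765 in Vegfc-deleted (0.0156 to 0.227) and 0.18 in control cells (0.0909 to 0.322). The other was Lif, a cytokine of the same family, with 4 irradiated and 39 non-irradiated UMIs in Vegfc-deleted cells. In endothelial cells 7 and 10 genes of this list had enough counts in Vegfc-deleted and control mice, of which Osmr and Il1r1 were lower in Vegfc-deleted cells, and Osmr was lower and Lif higher in control cells.

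Among 22 targets, ligands and clearance receptors of the members, 16 had enough counts in stromal cells with irradiation, and 1 was higher and 7 lower in each genotype. In either genotype the higher gene was Mmp9, and 4 of the 7 lower genes were the haemoglobin transcripts Hba-a1, Hba-a2, Hbb-bs and Hbb-bt, with ratios of 0.314 to 0.442 in Vegfc-deleted and 0.143 to 0.198 in control cells. The others were Elane, Ctsg and Tlr2 in Vegfc-deleted and Ctsg, Ctsl and Mcpt8 in control cells. Hbb-bs, whose protein Hp binds, measured 1377 CPM in irradiated Vegfc-deleted, 624 CPM in irradiated control, 4387 CPM in non-irradiated Vegfc-deleted and 4087 CPM in non-irradiated control stromal cells. Erythroid markers summed to 2188, 966, 6745 and 6277 CPM in these cells in the same order, and their part in the haemoglobin levels was not tested. Hmox1, which breaks down haem, measured 346 CPM and 666 CPM in irradiated Vegfc-deleted and control endothelial cells, against 82.3 CPM and 114 CPM in non-irradiated ones.

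Across 30 combinations of class and library with at least 50 cells, each member's log level was correlated with those of 7920 genes, as a description over points that share libraries and depth. Serpina3n was most like Kng1, which encodes kininogen (r = 0.94), Gpr50 (r = 0.93) and Il34 (r = 0.92), and A2m was most like Kcne4 (r = 0.94), Angptl1 (r = 0.93) and Csmd1 (r = 0.91). Serpina3g was most like Peak1 (r = 0.89), Serpinb9, an intracellular inhibitor of granzyme B (r = 0.88), and Crim1 (r = 0.88). Hp was most like Hnmt (r = 0.96), Abcd2 (r = 0.95) and C3 (r = 0.92), and Saa3 was most like Plcl1 (r = 0.86), Cyp4v3 (r = 0.84) and Lpl (r = 0.84). Among the members, A2m and Serpina3n were most alike (r = 0.87), and Hp and Serpina3g least (r = 0.20).

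Within the stromal class, cells rich in Serpina3n had more Hp than cells without Serpina3n. In non-irradiated Vegfc-deleted marrow, Hp measured 5694 CPM in the 57 stromal cells with 3 or more Serpina3n UMIs, against 3189 CPM in the 376 cells without one. In non-irradiated control marrow it measured 6266 CPM in 331 such cells, against 2881 CPM in 433 cells. Median depths were 10834 and 10973 UMIs in cells with Serpina3n, against 9889 and 8886 UMIs in cells without it. A2m measured 39.3 CPM and 29.7 CPM in the Serpina3n-rich cells, against 71.0 CPM and 37.0 CPM in those without it, Vegfc-deleted first. Seen from A2m, Serpina3n measured 73.6 CPM and 214 CPM in cells with 3 or more A2m UMIs, against 78.4 CPM and 210.3 CPM in cells without one, so no order is read from this pair. Cfb, complement factor B, measured 85.1 CPM and 64.2 CPM in the Serpina3n-rich cells, against 37.8 CPM and 22.8 CPM.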

How the data were processed

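The deposited files hold raw counts of UMIs per gene and cell barcode as the authors made them, without normalization, from 10x 3′ v3.1 libraries per the labels' protocols. Cell Ranger 2.1.1 and the mm10 build stand in the submitters' processing notes, whereas the file headers give software version 3.1.0. For irradiated mice the labels differ, with 3 for each genotype in the treatment text and 2 in the pool. Members and gene lists were chosen with earlier results of these data known.

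Barcodes with under 500 genes or over 10% mitochondrial UMIs were left out, then the highest doublet scores (Scrublet in scanpy 1.11.5, 0.8% per 1000 barcodes, 211 to 479 per library), which kept 18171 of 25475 barcodes. After scaling to equal depth and a log transform, 2000 variable genes, the members and the Serpina3 family left out, gave 40 components, 20 neighbours and 35 Leiden clusters (leidenalg 0.10.2, resolution 1, seed 7). Clusters were named from marker lists by score, detected markers, leading genes and depth, and 9 stayed unnamed, among them a low-depth cluster with LepR+ stromal markers (53 irradiated Vegfc-deleted, 57 irradiated control, 134 non-irradiated Vegfc-deleted and 138 non-irradiated control cells). Rebuilt names may differ from those of the study.

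Class sums of counts in each library were divided by the class total to give CPM. CPM have exact Poisson, shares exact Clopper-Pearson and ratios exact conditional intervals at 95% (scipy 1.17.1). Log2 ratios of single genes in lists used a prior of 0.5 counts. Other list genes were named where they had at least 30 UMIs and 50 CPM in the higher library and differed at least 2-fold the same way with irradiation in both genotypes, beside a short list always shown. A few genes of the lists are not reported here and were left out of their counts. Serpina3f, Serpina3m, Il6, Lif, the immediate early genes and other genes named to spell out a small count fall outside this rule and were chosen after their values were seen, as were Spp1, Mmp13 and Cfb among the leading genes of member-rich cells. The counting code was tested on simulated data. Positions came from GENCODE M21, in which 30934 of the 31053 feature IDs were found.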

Additional observations from a re-analysis of the deposited data

Results flagged for a closer look

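A2m and Hp in LepR+ stromal cells had log2 ratios of opposite sign in the 2 states or genotypes, and in each case the difference between the ratios was not tested, since each group has 1 library. For A2m, the Vegfc-deleted over control log2 ratio was -2.42 with irradiation, from 2 and 35 UMIs, and 1.15 without it, from 481 and 368 UMIs. For Hp, the irradiated over non-irradiated log2 ratio was 0.15 in Vegfc-deleted and -0.63 in control cells. The Vegfc-deleted over control log2 ratio of Hp was 0.57 with irradiation and -0.21 without it. Without the cell with the most Hp UMIs in each library, which was chosen as an alternative after seeing the data, the irradiated over non-irradiated ratio in Vegfc-deleted cells was -0.16, so that both genotypes had the same sign, and the Vegfc-deleted over control ratio with irradiation was 0.28.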

How the results depend on the processing

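Each of 24 log2 ratios was recomputed under 11 alternatives, and 239 of 264 values kept their direction. Of the 143 values for the 13 ratios at or past 2-fold, 119 lay within the counting interval, 134 stayed at least 2-fold and 2 reversed. With cells thinned to 1500 UMIs, endothelial Serpina3g with irradiation was 1.72 in Vegfc-deleted and 1.5 in control cells. In stromal cells, thinning gave -0.89 for Serpina3n with irradiation in control cells, -1.19 for Serpina3n with deletion without irradiation, -2.94 and -3.29 for A2m with irradiation in Vegfc-deleted and control cells, 1.58 for A2m with deletion under irradiation (reversed, 2 against 2 UMIs), and 2.80 and -0.10 for Saa3 with irradiation in control cells and with deletion under irradiation. With TMM (edgeR 4.0.16) and median-of-ratios factors, irradiation in control mice gave 1.00 and 0.98 for endothelial Serpina3g and -1.34 and -1.31 for stromal Serpina3n. Without cells that held a neutrophil granule UMI, endothelial Serpina3g with irradiation in Vegfc-deleted cells was 0.98, stromal Serpina3n was -2.80 with irradiation in Vegfc-deleted cells (2 against 233 UMIs) and -2.86 with deletion under irradiation, and Saa3 was -1.07 (reversed, 1 against 35 UMIs) and -2.22 in these contrasts. Without doublet removal, Saa3 was 2.17 with irradiation in Vegfc-deleted cells and -0.28 with deletion under irradiation, and at resolution 2 it was 2.83 with irradiation in control cells.

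Of 3 alternatives chosen after seeing the data, leaving out cells with a T or NK marker UMI moved no ratio at or past 2-fold beyond its counting interval. Adding the low-depth stromal cluster gave -0.45 for Saa3 with deletion under irradiation. Leaving out the cell with the most UMIs of the gene gave 0.24 and -2.07 for Saa3 with irradiation in Vegfc-deleted cells and with deletion under irradiation. Hp with irradiation in Vegfc-deleted cells was 0.15, against -0.20 to 0.09 under the alternatives that moved it beyond its counting interval. Requiring at least 1 UMI in place of 30 put 7.47 to 23.5% of all genes at 2-fold. The cause of these shifts was not tested, and the shares of cells with a UMI under thinning are given with the levels.

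No paired analysis was possible because each group has 1 library, and for the same reason no replicate could be left out. Pools of mice, libraries and clusters cannot be told apart from the groups, and Saa3 and A2m in irradiated Vegfc-deleted cells rest on 28 and 2 UMIs in 138 cells.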
